A study of Drosophila melanogaster with 6 samples.

Results

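The cytosolic glutathione S-transferases (GSTs) of Drosophila melanogaster are described here in larvae heterozygous or homozygous for a fio mutation. The family was taken as every protein-coding gene of the deposited count table whose name is Gst followed by a class letter (D, E, O, S, T or Z for delta, epsilon, omega, sigma, theta and zeta) and a number. This rule found 35 of 17908 genes, with 11 in class D, 14 in class E, 3 in class O, 1 in class S, 4 in class T and 2 in class Z. A low-count filter left 33 of them for testing, among 11866 genes in all, and dropped GstD11 and GstE4.

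GSTs join the tripeptide glutathione to reactive electrophiles, such as insecticides, plant toxins and products of lipid oxidation, which makes these compounds easier to export. The delta and epsilon classes have expanded in insects by tandem gene duplication and are the classes best known for handling foreign compounds and for induction through the transcription factor Cnc and its inhibitor Keap1. The omega, sigma, theta and zeta classes are shared with other animals, and several of their members act in ordinary metabolism.

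Polyadenylated RNA of larvae was sequenced in 6 libraries, 2 for each of 3 genotypes, to find genes affected by METTL16, an RNA methyltransferase. Control larvae, abbreviated wt in the labels, were fiomut/cyo, so they too carried a fio mutant chromosome, over the CyO balancer. Mutant larvae were fiomut/fiomut and also U6mut/U6+, that is heterozygous for a mutation named U6mut. Rescue larvae shared that genotype and carried in addition [U6+], an element the labels do not explain. All 3 groups therefore carried fiomut, and U6mut was in the mutant and rescue groups but not in the control. The labels give neither the kind of mutation nor the age of the larvae, and nothing in them says that replicate libraries are from different animals, so a p-value here reflects the scatter of these libraries alone and that scatter could be technical.

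The libraries held 15983161 to 17847161 counts each, and the family took 0.215 and 0.219% of the counts in control, 0.422 and 0.276% in the mutant libraries and 0.334 and 0.374% in the rescue libraries. CG7544, listed as METTL16 in RefSeq, had 22 to 52 counts per library, and its log2 difference between mutant and control was -0.14 (adjusted p = 0.875). These counts do not check the genotype labels. The larval label was compared with stage markers: the 4 larval cuticle genes summed to 14065 to 72103 CPM (counts scaled to 1e6 per library) in each library, and the 3 adult yolk protein genes to 11.7 to 44.8 CPM. Whole larvae were used, so fewer cells of a type and less RNA per cell cannot be told apart in any of the values that follow.

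The family lies mostly in a pair of tandem clusters. All 11 class D genes lie on chromosome 3R from 12364776 to 12385624 (Release 6 coordinates), with GstD10, GstD9 and GstD1 on the minus strand and then GstD2 to GstD8 on the plus strand. Of the 14 class E genes, 10 lie on 2R from 18396638 to 18409835, in the order GstE10, GstE1 and then GstE2 to GstE9. The other class E genes, GstE11, GstE12, GstE13 and GstE14, lie elsewhere on 2R, as do GstS1, GstT1 and GstT2. GstT3 and GstT4 are on X, GstO1, GstO2 and GstO3 adjoin on 3L from 8518885 to 8524866, and GstZ1 and GstZ2 adjoin on 3R from 9455517 to 9460652. The annotation gives a single coding exon to 20 of the 35 members, 10 of class D and 10 of class E, and several coding exons to the other 15. The predicted proteins are 199 to 268 residues long.

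Levels per gene length (FPKM, scaled by gene length and library, as deposited) were very unequal across the family. GstD1, the enzyme of the fly best known for metabolising the insecticide DDT, made up 53.1% of the summed FPKM of the family in control, 37.5% in mutant and 56.2% in rescue (means of 2 libraries). Its FPKM was 1313 ± 234 in control, 1342 ± 561 in mutant and 1876 ± 65.0 in rescue (mean ± SD, n = 2). By class, D held 59.9, 51.0 and 62.4% of the summed FPKM in control, mutant and rescue, and E held 20.0, 32.3 and 23.8%. Classes O, S, T and Z held 7.04, 5.05, 6.38 and 1.71% in control, and 2.79, 3.40, 9.66 and 0.81% in mutant.

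**Figure D1:**
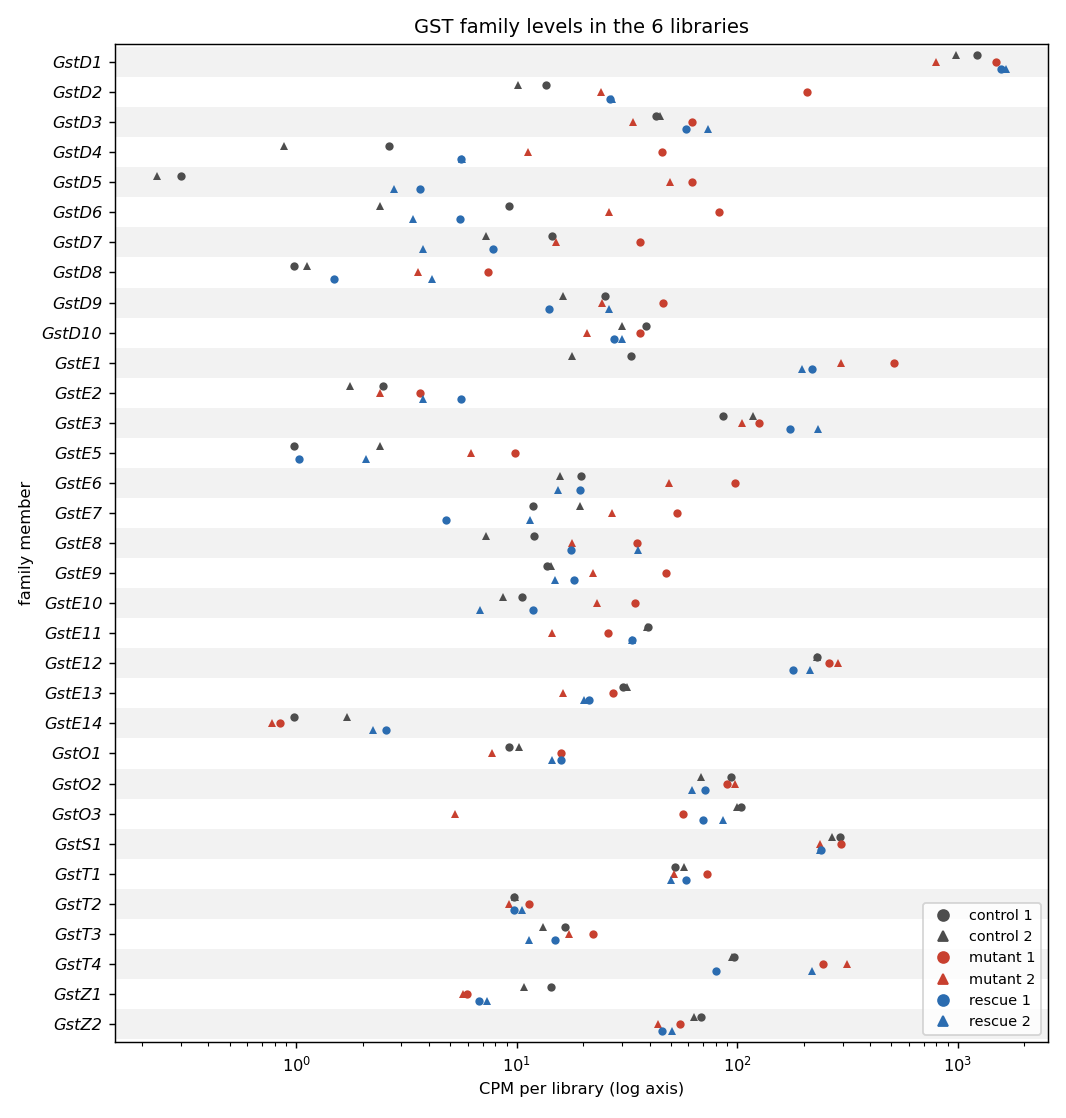
Level of the 33 tested members in every library, in CPM on a log axis, with a point for each library coloured by group. GstD5 had less than 1 CPM in both control libraries and 62.2 and 49.4 CPM in the mutant libraries, while GstS1 stayed between 237 and 294 CPM in all 6.

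The comparison of mutant with control sets fiomut homozygotes that also carry U6mut against fiomut heterozygotes over CyO. Effects of fiomut, U6mut and the balancer cannot be told apart in it. Of the 33 tested members, 10 were higher in the mutant, 1 was lower and 22 did not pass the test (edgeR's quasi-likelihood test, adjusted p under 0.05 over all 11866 genes). In the same comparison 9.94% of all tested genes were called higher and 7.04% lower, 17.0% in all. The members that rose were GstD2, GstD4, GstD5, GstD6 and GstD8 of class D and GstE1, GstE5, GstE6, GstE9 and GstE10 of class E, and the member that fell was GstZ1. The median log2 change was 1.81 over the 10 tested class D members and 1.31 over the 13 tested class E members, against -0.02 over all tested genes. None of the 8 tested members of classes O, S and T was called by edgeR, which gave GstT4 alone of these an unadjusted p under 0.05, and DESeq2 called that gene too. DESeq2 called more genes at large, 1436 higher and 1312 lower of 12640, against 1180 and 835 of 11866 by edgeR.

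**Figure D2:**
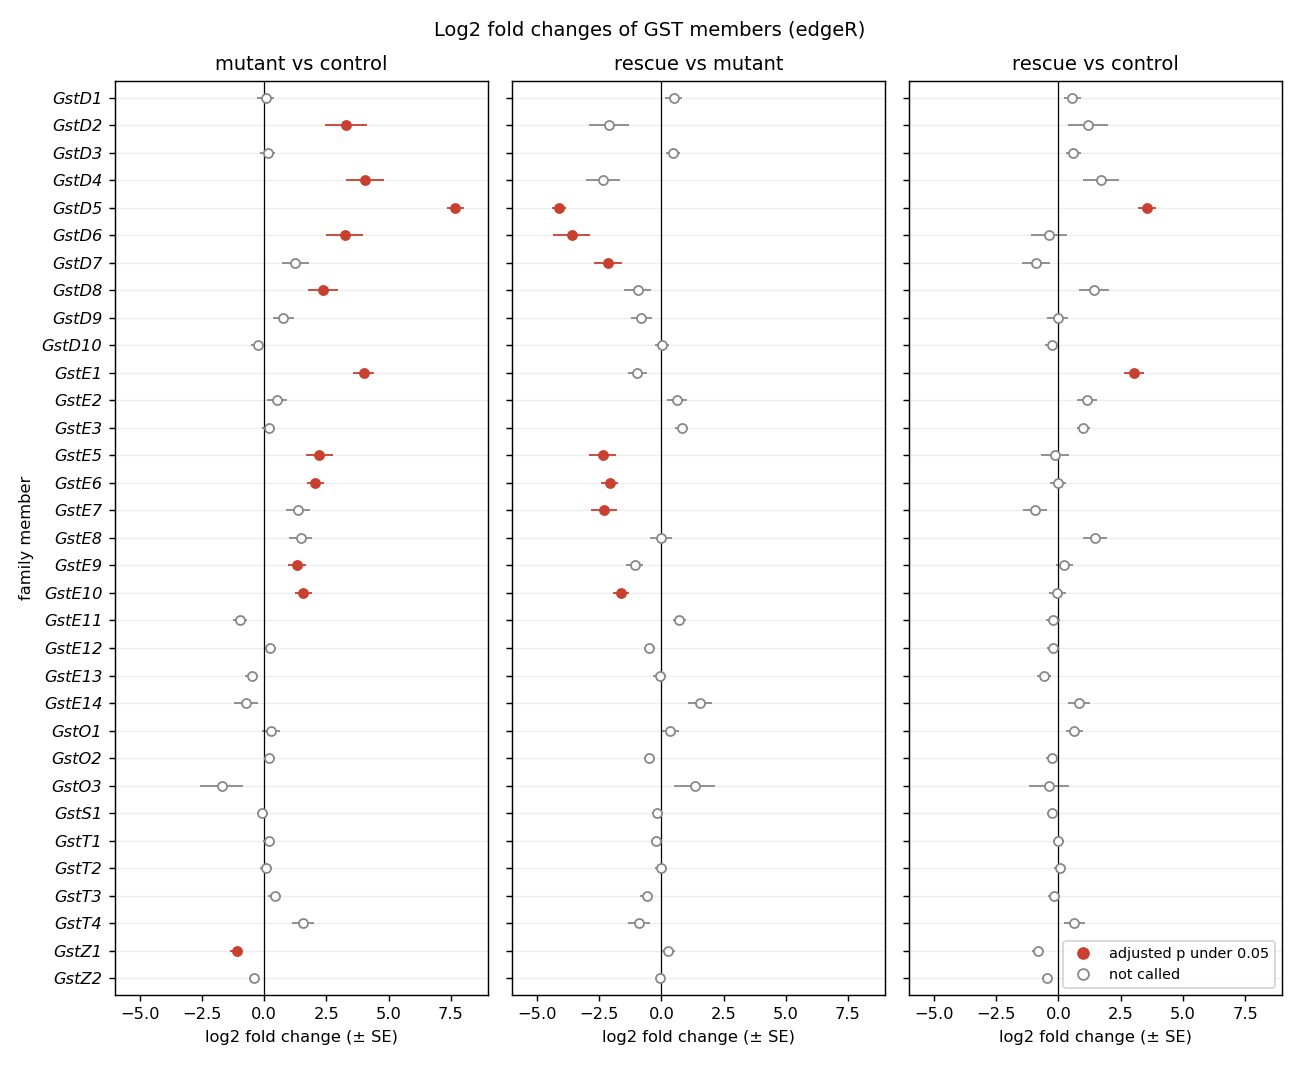
Log2 fold change of each tested member with its standard error, for mutant against control, rescue against mutant and rescue against control, with filled points where the adjusted p was under 0.05. The largest values are those of GstD5, at 7.68 for mutant against control and -4.12 for rescue against mutant.

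Within class D the calls fell among the plus-strand genes. Of the 7 plus-strand genes GstD2 to GstD8, 5 rose, with a median log2 change of 3.24, and none of the 3 minus-strand genes GstD1, GstD9 and GstD10 was called (median 0.06). GstD5 (3R, 12375733 to 12376572) had 0.300 and 0.235 CPM in control 1 and 2, 62.2 and 49.4 CPM in mutant 1 and 2, and 3.65 and 2.78 CPM in rescue 1 and 2. The 3 groups did not overlap, and in raw counts the control libraries held 4 reads each against 1029 and 828 in the mutant. Mutant GstD5 was 205-fold above control (log2 7.68, SE 0.35, adjusted p = 3.76e-04), and its adjusted p lay between 2.26e-36 and 0.00553 under 11 alternatives, which include leaving out each library. It passed the low-count filter through the mutant and rescue libraries and not through the control.

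GstD4 had 2.63 and 0.880 CPM in control, 45.5 and 11.3 CPM in mutant and 5.58 and 5.62 CPM in rescue. The mutant libraries lay above all others but far apart, and mutant exceeded control 16.5-fold (log2 4.04, SE 0.76, adjusted p = 0.0152; range over the alternatives 2.84e-07 to 0.0714). Without mutant 1 its log2 change was 2.71 (adjusted p = 0.0714) and without control 2 it was 3.43 (adjusted p = 0.0545), while the call held at 5.01 without control 1 and at 4.72 without mutant 2. GstD2 had 13.6 and 10.2 CPM in control, 206 and 24.2 CPM in mutant and 26.4 and 27.2 CPM in rescue. Mutant 1 stood far above every other library and mutant 2 lay just under the rescue libraries, so the 9.72-fold difference from control (log2 3.28, SE 0.85, adjusted p = 0.0405; range 0.00525 to 0.141) rested on 1 library. Without mutant 1 the log2 change of GstD2 was 1.03 (adjusted p = 0.0952), without mutant 2 it was 4.12 (adjusted p = 0.00525), and the call was also lost without control 1 (0.0890) or control 2 (0.141).

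GstD6 had 9.24 and 2.41 CPM in control, 82.5 and 26.2 CPM in mutant and 5.52 and 3.38 CPM in rescue. Its mutant libraries lay above all others, 9.44-fold over control (log2 3.24, SE 0.74, adjusted p = 0.0273; range 5.72e-05 to 0.154). The call was lost without mutant 1 (log2 2.18, adjusted p = 0.154), mutant 2 (3.84, 0.0504) or control 2 (2.56, 0.0698), and without control 1 the log2 change was 4.50 (0.0155). GstD8 had 0.977 and 1.12 CPM in control, 7.38 and 3.58 CPM in mutant and 1.48 and 4.15 CPM in rescue, with mutant and rescue overlapping. It was 5.19-fold above control in the mutant (log2 2.38, SE 0.61, adjusted p = 0.0386; range 0.00450 to 0.198), and leaving out control 1, control 2, mutant 1 or mutant 2 ended that call, with log2 changes of 2.30, 2.48, 1.77 and 2.81. GstD7, between GstD6 and GstD8, had 14.5 and 7.22 CPM in control and 36.4 and 15.0 CPM in mutant. Its mutant libraries lay just above both control libraries, and the log2 difference of 1.25 was not called (SE 0.54, adjusted p = 0.156; range 0.0209 to 0.637).

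The abundant and the minus-strand class D genes were not called. GstD1 (3R, 12367817 to 12369268) had 1221 and 980.2 CPM in control, 1492 and 796 CPM in mutant and 1573 and 1654 CPM in rescue. The mutant libraries lay on either side of the control libraries, and the log2 difference was 0.06 (SE 0.33, adjusted p = 0.921). GstD3 (33.7 to 73.9 CPM over the 6 libraries), GstD9 (14.0 to 46.0 CPM) and GstD10 (20.9 to 38.4 CPM) also overlapped between mutant and control. GstD11, at the far end of the cluster, was close to silent at 0 to 3 counts per library, where a count of 0 allows up to 3, and no difference was detectable at this depth.

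**Figure D3:**
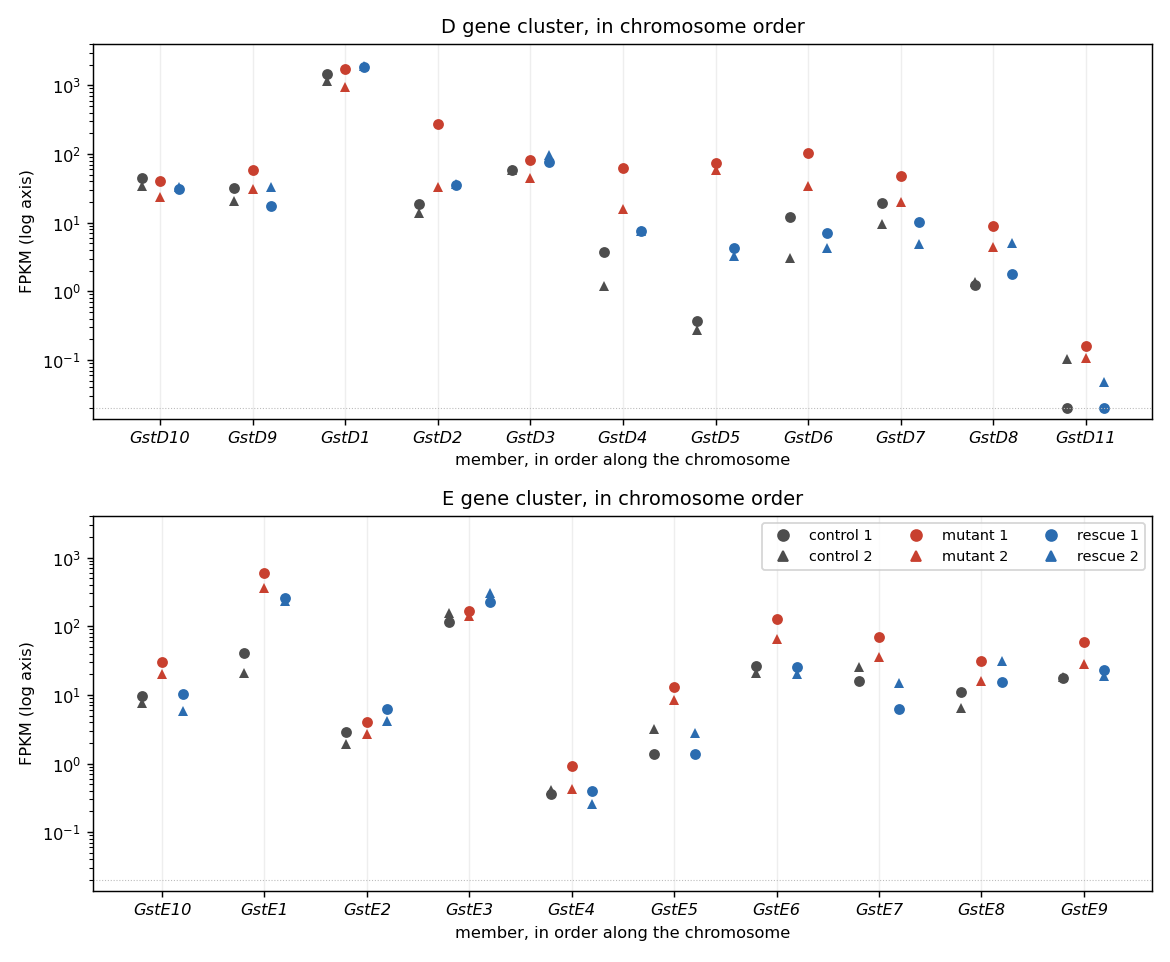
FPKM of each gene of the class D cluster on 3R (top) and the class E cluster on 2R (bottom) in every library, in chromosomal order on a log axis; circles are library 1 and triangles library 2 of each group, and points on the dotted line are 0. Both mutant libraries lie above both control libraries for GstD4, GstD5, GstD6, GstE1 and GstE6, among other genes. The groups lie close together for GstD1 and GstD3.

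In class E, all 5 members that rose lie in the 2R cluster, where 9 of 10 genes were tested, and edgeR called none of the 4 outside it (median log2 change -0.62), while DESeq2 called 1 of them, GstE11, lower. GstE1 (2R, 18398393 to 18399223) had 33.1 and 17.7 CPM in control, 512 and 296 CPM in mutant and 218 and 197 CPM in rescue. The groups did not overlap, and mutant was 15.9-fold above control (log2 3.99, SE 0.42, adjusted p = 0.00159; range 2.48e-21 to 0.0150). GstE6 (2R, 18406011 to 18406761) had 19.6 and 15.7 CPM in control, 97.3 and 49.0 CPM in mutant and 19.4 and 15.4 CPM in rescue. Both mutant libraries lay above the other 4, which were alike, and mutant was 4.14-fold above control (log2 2.05, SE 0.35, adjusted p = 0.0102; range 3.26e-06 to 0.0456). GstD5, GstE1 and GstE6 were the members called between mutant and control under all 11 alternatives.

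GstE5 was scarce, with 0.977 and 2.41 CPM in control, 9.85 and 6.21 CPM in mutant and 1.03 and 2.07 CPM in rescue. Its mutant libraries lay above all others, 4.66-fold over control (log2 2.22, SE 0.54, adjusted p = 0.0322; range 0.00231 to 0.170). GstE10 had 10.6 and 8.69 CPM in control and 34.2 and 23.1 CPM in mutant, a 2.98-fold rise (log2 1.57, SE 0.34, adjusted p = 0.0224; range 7.85e-04 to 0.130). GstE9 had 13.7 and 14.3 CPM in control and 47.3 and 22.3 CPM in mutant, a 2.48-fold rise (log2 1.31, SE 0.35, adjusted p = 0.0453; range 0.00912 to 0.173). Mutant and control did not overlap for either gene. Leaving out mutant 1 ended all 3 calls, with log2 changes of 1.86 for GstE5, 1.27 for GstE10 and 0.67 for GstE9. The GstE5 call was also lost without control 1 (log2 1.75, adjusted p = 0.0691) or mutant 2 (2.52, 0.0902) and held at 3.03 without control 2. The call of GstE10 was lost without control 2 (1.44, 0.0817) or mutant 2 (1.83, 0.0596). That of GstE9 was lost without control 1 (1.29, 0.107), control 2 (1.34, 0.120), rescue 1 (1.31, 0.0538) or rescue 2 (1.31, 0.0549). GstE1 and GstE10 overlap each other and GstE9 overlaps imd, and since the strand setting of the counting is not given in the sources used here, the reads of the overlaps cannot be assigned and these counts are uncertain.

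Among the other genes of the E cluster, GstE7 had 11.9 and 19.4 CPM in control and 53.5 and 27.0 CPM in mutant (log2 1.36, SE 0.49, adjusted p = 0.0998). GstE8 had 11.9 and 7.28 CPM in control and 35.2 and 17.8 CPM in mutant (log2 1.47, adjusted p = 0.0713). Neither gene overlapped between mutant and control. The edgeR fit called neither and DESeq2 called both higher, and GstE8 was called in 5 of 11 alternatives in all (adjusted p from 0.0220 to 0.319). GstE2 (1.76 to 5.58 CPM over the 6 libraries) and GstE3 (85.9 to 231 CPM) differed by log2 0.51 and 0.18 and were not called, and GstE4, with 4 to 13 counts per library, was not tested.

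Outside the cluster, GstE12 had 231 and 229.9 CPM in control and 261 and 287 CPM in mutant (log2 0.25, adjusted p = 0.436). GstE11 lay lower in both mutant libraries, at 25.8 and 14.4 CPM against 39.4 and 38.8 CPM in control, and edgeR did not call it (log2 -0.96, adjusted p = 0.0576; range 0.0177 to 0.128). It was called lower by DESeq2 (log2 -0.98), by edgeR without the low-count filter (-0.95) and without mutant 1 (-1.43, adjusted p = 0.0264). GstE13 and GstE14 also lay below control in both mutant libraries without a call, with log2 differences of -0.51 and -0.73. GstE14, also called noppera-bo, serves ecdysteroid synthesis in the prothoracic gland, and it was scarce throughout at 0.776 to 2.56 CPM. GstE12 and GstE13 overlap other genes (CG3894 and CG18659), so their counts carry the same uncertainty about strand.

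In the classes shared with other animals edgeR called GstZ1. GstO3, of the omega class whose enzymes act on thiols, had 104 and 99.7 CPM in control, 56.7 and 5.25 CPM in mutant and 69.7 and 86.6 CPM in rescue. Both mutant libraries lay lowest, but far apart from each other, and the log2 difference of -1.72 was not called (SE 0.85, adjusted p = 0.200; range 0.00595 to 0.305). Without mutant 1 it was -4.27 and called (adjusted p = 0.00595), and GstO3 was then also called higher in rescue than in mutant (log2 3.89, adjusted p = 0.0124). GstO1 (7.70 to 15.9 CPM) and GstO2 (62.4 to 97.4 CPM, overlapping the se gene) were not called (log2 0.27 and 0.21). GstS1, the single sigma enzyme, known as an abundant protein of fly flight muscle, had 294 and 269 CPM in control, 294 and 237 CPM in mutant and 239 and 237 CPM in rescue. Its mutant and control libraries overlapped (log2 -0.08, SE 0.22, adjusted p = 0.814), and with library totals as the only scaling the sign of this difference turned.

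GstT4, a theta-class gene on X, had 96.9 and 95.1 CPM in control, 245 and 315 CPM in mutant and 79.8 and 219 CPM in rescue. Both mutant libraries lay above all others and the rescue libraries differed 2.74-fold. The log2 difference of 1.55 between mutant and control missed the threshold (SE 0.44, adjusted p = 0.0529; range 0.00555 to 0.200). It passed in 6 of 11 alternatives, among them library totals, DESeq2, no filter and leaving out rescue 1 or rescue 2. In rescue against mutant GstT4 was called lower without rescue 2 (log2 -1.81, adjusted p = 0.0289) and not otherwise. GstT1 (50.0 to 73.0 CPM), GstT2 (9.25 to 11.4 CPM, overlapping CG12926) and GstT3 (11.3 to 22.2 CPM) were not called, with log2 differences of 0.18, 0.07 and 0.41. GstZ1 and GstZ2 belong to the zeta class, whose enzymes isomerise maleylacetoacetate in tyrosine breakdown. GstZ1 had 14.3 and 10.7 CPM in control, 5.92 and 5.73 CPM in mutant and 6.78 and 7.37 CPM in rescue. All mutant and rescue libraries lay below control, and GstZ1 fell by 1.10 on the log2 scale in the mutant (SE 0.26, adjusted p = 0.0294; range 0.00542 to 0.122). That call was lost with library totals as the only scaling and without control 1, mutant 1, mutant 2, rescue 1 or rescue 2, with log2 changes of -1.12 to -0.87 in these leave-one-out fits. GstZ2 had 68.3 and 63.3 CPM in control, 54.8 and 43.5 CPM in mutant and 45.4 and 50.5 CPM in rescue, all below control, and was not called (log2 -0.42, SE 0.19, adjusted p = 0.176).

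All 10 members that rose by edgeR have a single coding exon, among 19 tested, and of the 14 tested members with several coding exons edgeR called none higher and 1 lower. These 14 are also the tested members outside both clusters, so this is the same split as that by cluster. DESeq2 called GstT4 higher and GstE11 and GstZ1 lower among these 14. Both mutant libraries lay above both control libraries for 16 of the 33 members, where 30.7% of all tested genes did so, and below them for 6, where 30.2% did.

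The comparison of rescue with mutant asks which differences change when [U6+] is present, and it shares the mutant libraries with the comparison above, so the values are given side by side and not as separate support. No member was called higher in rescue by edgeR (7.61% of all tested genes were), 3 had an unadjusted p under 0.05 in that direction (GstE3, GstE11 and GstE14) where 16.4% of all tested genes did, and DESeq2 called GstE3. Called lower in rescue were 7 of 33 members, GstD5, GstD6, GstD7, GstE5, GstE6, GstE7 and GstE10, where 8.47% of all tested genes were and 16.1% were called in either direction. The median log2 change was -1.53 over class D and -0.48 over class E, against 0.00 over all tested genes. Over all genes DESeq2 called 1238 higher and 1404 lower of 12343, against 903 and 1005 of 11866 by edgeR.

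GstD5 was 17.3-fold lower in rescue than in mutant (log2 -4.12, SE 0.27, adjusted p = 6.94e-04), with a range of adjusted p from 4.17e-34 to 0.0126 over the alternatives. It was the member called in this comparison under all 11 alternatives. GstD6 was 12.2-fold lower (log2 -3.61, SE 0.75, adjusted p = 0.0222; range 3.38e-06 to 0.128). GstE6 was 4.20-fold lower (log2 -2.07, SE 0.35, adjusted p = 0.0108; range 1.55e-06 to 0.0561). For both genes the rescue libraries lay near the control libraries and below both mutant libraries. The GstD6 call was lost without mutant 1 (log2 -2.56) or rescue 2 (-3.30) and stood at -4.21 without mutant 2, and the GstE6 call without mutant 1 (-1.50) or rescue 2 (-1.92).

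GstE5 was 5.15-fold lower in rescue than in mutant (log2 -2.37, SE 0.54, adjusted p = 0.0282; range 8.71e-04 to 0.160). GstE10 was 3.07-fold lower (log2 -1.62, SE 0.34, adjusted p = 0.0222; range 3.56e-04 to 0.129), at 11.8 and 6.82 CPM in rescue. The rescue libraries of both genes lay within or close to the control range. GstD7 was 4.45-fold lower (log2 -2.15, SE 0.56, adjusted p = 0.0426; range 0.00174 to 0.224), at 7.80 and 3.76 CPM in rescue. GstE7 was 4.93-fold lower (log2 -2.30, SE 0.51, adjusted p = 0.0258; range 1.17e-04 to 0.149), at 4.78 and 11.5 CPM in rescue. In GstE7 both rescue libraries lay below both control libraries as well. Without mutant 1 all 4 calls were lost, with an adjusted p of 0.160 for GstE5 and log2 changes of -1.31 for GstE10, -1.38 for GstD7 and -1.73 for GstE7. Without mutant 2 they were lost too, at log2 -2.66 for GstE5, -1.87 for GstE10, -2.65 for GstD7 and -2.71 for GstE7. The GstE5 call was further lost without rescue 1 (-1.95) or rescue 2 (-2.96), that of GstE7 without rescue 1 (-1.80), and those of GstE10 and GstD7 without rescue 2 (-1.27 and -1.72). The GstE7 call held at -3.07 without rescue 2 and the GstD7 call at -2.77 without rescue 1.

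Of the 10 members that rose in the mutant, 5 were not called lower in rescue. How many of all genes called higher in mutant were also called lower in rescue was not counted, so this split has no background. GstE1 had rescue libraries at 218 and 197 CPM against 512 and 296 CPM in mutant, and the log2 difference of -0.96 was not called (SE 0.37, adjusted p = 0.119). GstD2 (log2 -2.11, SE 0.81, adjusted p = 0.118), GstD4 (-2.34, SE 0.68, 0.0576), GstD8 (-0.96, 0.270) and GstE9 (-1.07, 0.0796) lay lower in rescue on average and were not called by edgeR. DESeq2 called GstD4 and GstE9, and GstD4 was called in 6 of 11 alternatives (adjusted p from 0.00442 to 0.331). Without mutant 2, edgeR called GstD2, GstD4 and GstE9 lower. GstE8 had 17.6 and 35.4 CPM in rescue, much as in the mutant (adjusted p = 0.999).

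Rescue against control asks what remains when mutant larvae carry [U6+], and it shares the control libraries with the first comparison. Few genes were called here at all, with 0.354% of tested genes higher and 0.287% lower, 0.64% in all. Higher in rescue were 2 members, GstD5 at 11.8-fold (log2 3.57, SE 0.36, adjusted p = 0.0167; range 6.57e-07 to 0.0654) and GstE1 at 8.18-fold (log2 3.03, SE 0.40, adjusted p = 0.0327; range 3.32e-11 to 0.0909). Both calls were lost when mutant 1 or mutant 2 was left out. The log2 changes were then 3.57 and 3.56 for GstD5, and 3.03 in both fits for GstE1. The mutant libraries are not compared here, but they enter the filter, the scaling, the estimate of spread and the adjustment of p. No member was called lower by edgeR or DESeq2. GstZ1 and GstZ2 had an unadjusted edgeR p under 0.05 in that direction, where 9.67% of all tested genes did. In the higher direction 5 members did, GstD5, GstE1, GstE2, GstE3 and GstE8, against 9.16% of all tested genes. GstD6, GstE5, GstE6 and GstE10 differed from control by log2 -0.37, -0.15, -0.02 and -0.05 (SE 0.73, 0.56, 0.34 and 0.34; adjusted p from 0.823 to 0.980), which does not show that they were equal, and with library totals as the only scaling the last 3 signs turned.

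Some members were highest in rescue. GstE3 had 85.9 and 118 CPM in control, 126 and 105 CPM in mutant and 174 and 231 CPM in rescue, with both rescue libraries above the other 4. The log2 difference was 0.99 from control (adjusted p = 0.106) and 0.81 from mutant (adjusted p = 0.0724), and edgeR called neither, while DESeq2 called both. Between rescue and control DESeq2 called 378 genes higher and 618 lower of 12343, against 42 and 34 of 11866 by edgeR. GstD1 was also highest in rescue, by log2 0.55 over control (adjusted p = 0.425) and 0.50 over mutant (adjusted p = 0.336), and not called. Both rescue libraries lay above both control libraries for 13 members, where 30.7% of all tested genes did so, and below them for 9, where 23.5% did. They lay below both mutant libraries for 14 members (33.1% of all tested genes) and above them for 7 (33.8%).

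Across the 3 comparisons, edgeR called 13 of the 33 tested members in at least 1 and 20 in none, and among these 20 DESeq2 called GstE3, GstE8, GstE11 and GstT4. The share of all tested genes called in at least 1 comparison was not counted, so the 13 has no background here. For each comparison by edgeR that share was 17.0% (mutant against control), 16.1% (rescue against mutant) and 0.64% (rescue against control). The sets that follow are those of edgeR. GstD5 was called in all 3. GstD6, GstE5, GstE6 and GstE10 were higher in mutant than in control and lower in rescue than in mutant. GstE1 was higher in both mutant and rescue than in control, GstD2, GstD4, GstD8 and GstE9 were called between mutant and control and in neither other comparison, and GstD7 and GstE7 were called between rescue and mutant and in neither other. DESeq2 also called GstD4 and GstE9 between rescue and mutant and GstE7 between mutant and control. These are sets of calls, and the share of all tested genes with each joint pattern was not counted. Whether one member differed more than another was not tested.

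**Figure D4:**
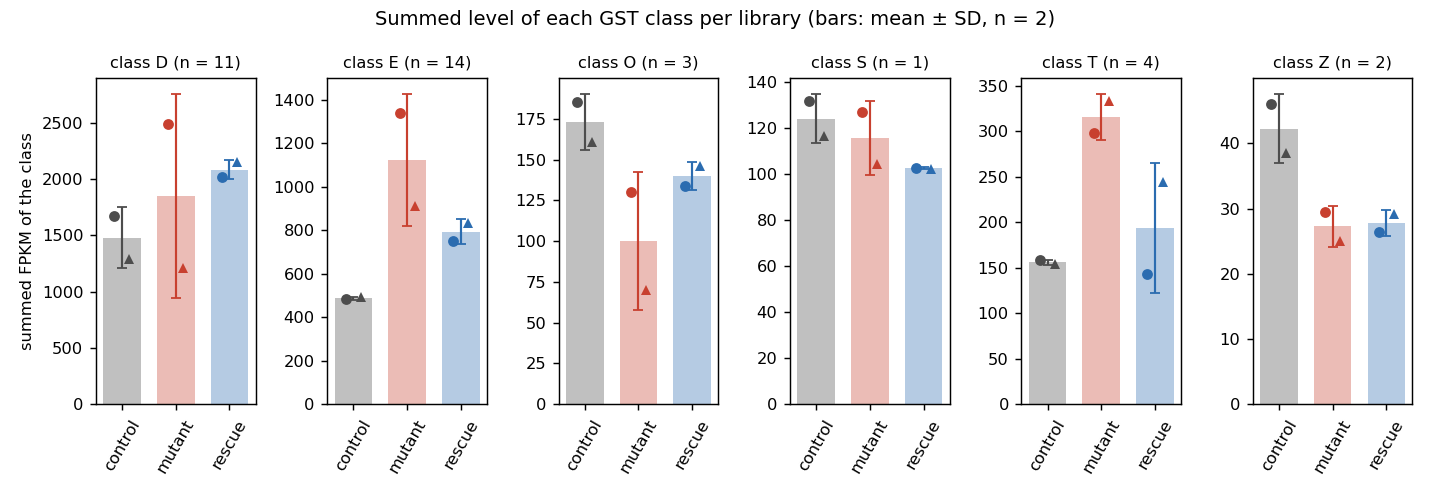
Summed FPKM of each GST class in every library, with points for libraries, bars from 0 for group means and error bars for the SD (n = 2). Class E reached 1339 and 910 in mutant against 483 and 492 in control, and class O was lowest in the mutant at 130 and 70.0.

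Summed by class, the small members weighed little against GstD1. The class D sum was 1670 and 1289 FPKM in control, 2490 and 1211 FPKM in mutant and 2022 and 2146 FPKM in rescue, with mutant on either side of control. Without GstD1 the class D sum was 192 and 142 FPKM in control, 751 and 266 FPKM in mutant and 191 and 224 FPKM in rescue, with mutant above both other groups. The class E sum was 483 and 492 FPKM in control, 1339 and 910.4 FPKM in mutant and 753 and 835 FPKM in rescue, with no overlap between the groups. Class T summed to 158 and 154 FPKM in control, 298 and 334 FPKM in mutant and 143 and 245 FPKM in rescue, which follows GstT4. Class O gave 185 and 161, 130.1 and 70.0, and 134 and 146 FPKM in the same order, and class Z gave 46.0 and 38.5, 29.5 and 25.0, and 26.4 and 29.2 FPKM. No test was made on sums.

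The mutant libraries stood apart from each other across much of the family. The higher of the 2 mutant libraries exceeded the lower by a median factor of 1.73 over the 33 members, against 1.25 over all tested genes (CPM + 0.1). In control and rescue the medians were 1.25 and 1.22 over the members, against 1.28 and 1.16 over all genes. Mutant 1 was higher than mutant 2 for 30 of 33 members, all 10 tested class D genes among them, where 50.1% of all tested genes were higher in mutant 1. Over 2-fold apart in the mutant were 8 members, GstD2, GstD4, GstD6, GstD7, GstD8, GstE9, GstO1 and GstO3, where 7.56% of all tested genes were. GstD5 was not among them, at a ratio of 1.26.

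**Figure D5:**
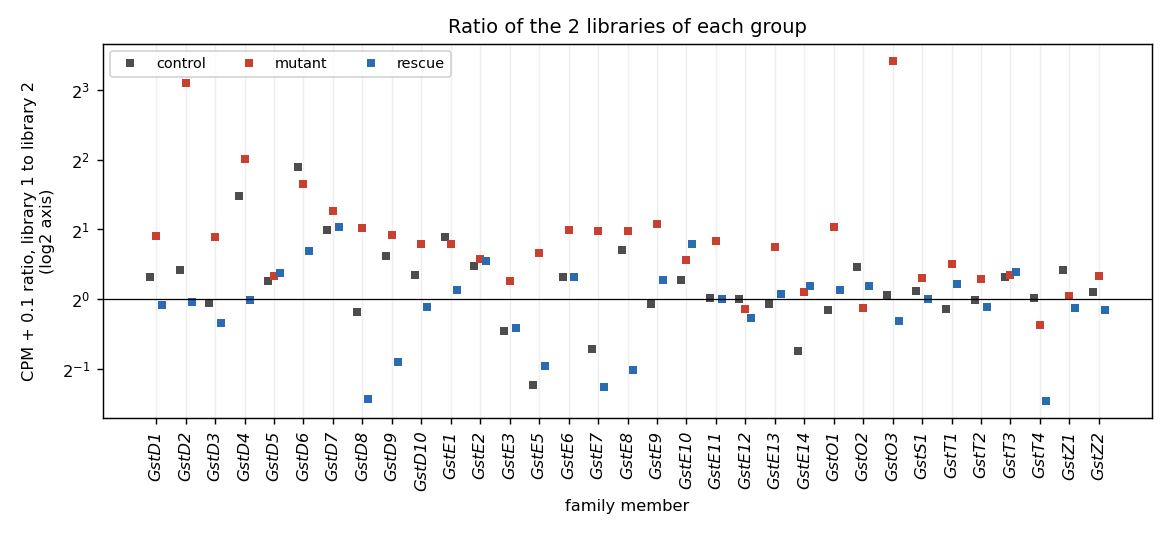
Ratio of library 1 to library 2 (CPM + 0.1, log axis) of each tested member within control, mutant and rescue. In the mutant 30 of 33 members lie above a ratio of 1, up to 8.51 for GstD2 and 10.6 for GstO3.

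Tissue markers moved between the groups as well. The counts of calls below stand beside these shares of all tested genes by edgeR. In mutant against control 9.94% were called higher and 7.04% lower, and in rescue against mutant 7.61% higher and 8.47% lower. Of 13 midgut digestive enzyme genes, 10 were higher in mutant than in control and 9 were lower in rescue than in mutant; they summed to 2747 and 2232 CPM in control, 26315 and 26910 CPM in mutant and 4362 and 3528 CPM in rescue. Of 7 Malpighian tubule genes, 3 were higher in mutant and 2 lower in rescue than in mutant (sums of 222 to 321 CPM in control, 520.2 to 534 in mutant and 324 to 361 in rescue). Of 6 salivary glue genes, 5 were lower in mutant and 5 higher in rescue than in mutant (2572 and 7466, 23.3 and 434, and 13149 and 12911 CPM). Fat body genes were lower in mutant for 2 of 7 (92466 and 93496 against 64769 and 70770 CPM), larval cuticle for 4 of 4 and muscle for 1 of 4 (38824 to 66510 against 26076 to 26921 CPM), and none of 4 hemocyte genes was called (194 to 349 against 393 to 424 CPM). Each sum runs over all genes of its list, called or not. In fat body the called genes were Lsp2 and Fbp1. The uncalled Lsp1beta, Lsp1gamma and Lsp1alpha had mean CPM of 34735, 28885 and 14950 in control and 35295, 17400 and 10501 in mutant. In rescue against mutant, 2 fat body and 2 cuticle genes were higher and 2 hemocyte genes lower (128 CPM in both rescue libraries). None of the markers was called between rescue and control, where few genes were called at all. This does not show that tissue make-up was equal. Muscle summed to 15338 and 14021 CPM in rescue, below both control libraries. The log2 differences of its 4 genes from control were -2.28 to -1.34 (edgeR, adjusted p from 0.0562 to 0.0661). Fat body, cuticle and hemocyte sums also lay below control in both rescue libraries, and midgut, tubule and glue sums lay above. Of 2 tested yolk protein genes 1 was higher and 1 lower in mutant than in control. No marker of these lists was at 0 in all libraries. Midgut, tubule and fat body are tissues in which GSTs are known to be expressed, and the part of tissue make-up and larval stage in the GST differences was not tested.

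Other genes of glutathione and peroxide metabolism, 30 of 31 listed genes being tested, give a wider view of the pathway. In the mutant 2 of the 30 were higher than in control and 1 was lower, against 9.94% and 7.04% of all tested genes, and the median log2 change was 0.09. Gclc, the catalytic subunit of the enzyme that starts glutathione synthesis, had 37.5 and 26.5 CPM in control, 138 and 160.4 CPM in mutant and 83.9 and 72.7 CPM in rescue. The groups did not overlap, and Gclc rose in the mutant (log2 2.22, SE 0.24, adjusted p = 0.00190; range 3.08e-13 to 0.0185) and was lower in rescue than in mutant (log2 -0.93, SE 0.23, adjusted p = 0.0384, lost in 5 of 11 alternatives, up to 0.224). Its modifier subunit Gclm had 49.4 and 47.8 CPM in control and 147 and 104 CPM in mutant (log2 1.37, SE 0.26, adjusted p = 0.0163; lost without control 2 at 0.0584 and mutant 1 at 0.0843). The gene gfzf, whose product joins zinc fingers to a GST domain, had 70.5 and 53.8 CPM in control and 39.1 and 34.1 CPM in mutant (log2 -0.76, SE 0.20, adjusted p = 0.0444, lost in 6 of 11 alternatives, up to 0.160).

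In rescue none of the 30 was called higher than in mutant by edgeR and 4 were lower, where 8.47% of all tested genes were lower, namely Gclc, Mgstl, Jafrac1 and Men, with a median of -0.27. Mgstl, a microsomal GST of another protein family, had 83.3 and 47.7 CPM in mutant and 19.1 and 24.8 CPM in rescue (log2 -1.58, SE 0.34, adjusted p = 0.0242; lost without mutant 1, rescue 1 or rescue 2, up to 0.128). The peroxiredoxin Jafrac1 had 492 and 568 CPM in mutant and 266 and 212 CPM in rescue (log2 -1.15, SE 0.24, adjusted p = 0.0220; lost without either mutant or either rescue library, up to 0.172). Malic enzyme, Men, a source of NADPH, differed by log2 -1.73 (SE 0.30, adjusted p = 0.0120; lost without mutant 1, mutant 2 or rescue 1, up to 0.0758). The regulator cnc had 153 and 162 CPM in control and 203 and 276 CPM in mutant and was not called (log2 0.61, adjusted p = 0.108), nor was Keap1 (log2 0.20). Against control, edgeR called none of the 30 in rescue, where 0.64% of all tested genes were called in either direction. Gclc (log2 1.29, adjusted p = 0.0598) and Mgstl (log2 -1.81, adjusted p = 0.0621) lay just short of the threshold.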

How the data were processed

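The authors deposited raw read counts per gene for 6 libraries, a table of FPKM values made from the same counts, and a table of group FPKM, which holds the mean of the 2 libraries of each group and was not used for tests. Per the file headers, the tables carry gene names, types, positions and strands. Not given in the sources used here are the genome build, the aligner and how the counting treated strand and reads shared by near-identical paralogs. All 35 members share their coordinates with RefSeq Release 6 and with the Ensembl annotation, from which exon counts and protein lengths were taken.

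The counts were tested in R 4.3.3 by edgeR 4.0.16 (glmQLFit and glmQLFTest), with TMM factors and all 6 libraries in 1 fit without a block. Genes had to pass filterByExpr with a minimum count of 10, and p-values were adjusted by the Benjamini-Hochberg method over 11866 genes. The common dispersion was 0.0721, with 3 residual degrees of freedom. CPM are counts scaled to 1e6 per TMM-scaled library. The script was tested on simulated data. Alternatives were other scalings, DESeq2 1.42.0, no filter, a replicate block and leaving out each library. The members, pathway genes and markers were chosen with earlier results of these data known. Full values are given for members called with a log2 change of at least 2 in either mutant comparison, members called between rescue and control, and the member of each class with the highest mean FPKM; GstZ1, GstE9 and GstE10 were added because they were called, and GstE3, GstE8, GstE11 and GstE12 after their values were seen.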

Additional observations from a re-analysis of the deposited data

How the results depend on the processing

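With 2 libraries a group, most calls were lost when some single library was left out. Leaving out a library also leaves fewer residual degrees of freedom, and some calls were lost with little change in the difference. GstE9 is such a case for the control libraries, with log2 changes of 1.29 without control 1 and 1.34 without control 2. With all libraries it was 1.31, while without mutant 1 it was 0.67. Leaving out 1 library gave 3 to 11 members higher in mutant than in control (10 with all libraries), 0 to 2 lower (1), 0 to 2 higher in rescue than in mutant (0), 1 to 8 lower (7) and 0 to 2 higher in rescue than in control (2). Without mutant 1, 3 members were higher in mutant than in control and 1 was lower in rescue than in mutant, while over all genes the calls in either direction went from 2015 to 611 and from 1908 to 400. The remaining library of that group is assumed to vary like the other groups. Other scalings, DESeq2 and the unfiltered fit kept the counts of higher members in mutant within 10 to 13. The count of lower members was 0 with library totals, 2 with DESeq2 and 2 without the filter, and DESeq2 called 1 member higher in rescue than in mutant. GstE14 was called higher in rescue than in mutant without control 1 or control 2, and GstE11 without mutant 1. The cause was not tested.

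Library totals as the only scaling gave other median log2 changes over all genes. They were 0.19 for mutant against control, 0.11 for rescue against mutant and 0.39 for rescue against control. With TMM factors they were -0.02, 0.00 and 0.07 in the same order. The rescue to control ratio of summed CPM then went from 1.30 to 1.63 for the family, from 1.44 to 1.81 for class D, from 1.49 to 1.86 for class E (1.63 by FPKM), from 0.831 to 1.04 for class O, from 0.846 to 1.06 for class S and from 0.702 to 0.878 for class Z, and the mutant to control ratio of class T from 2.12 to 2.45.

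The replicate numbers of the labels share no stated origin, and the deviations of same-numbered libraries correlated at 0.0356, 0.0554 and 0.0164 over all tested genes. With 1 such deviation per group, these values cannot show whether same-numbered libraries share a batch or day. With a replicate block 10 members were higher in mutant, 8 of them called without it; GstD2 (adjusted p = 0.0525) and GstD8 (0.0572) were lost, and GstD7 (0.0209) and GstT4 (0.0435) were gained.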

Other observations

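The se gene (sepia, also GstO4) is an omega-class GST outside the name pattern, known for its part in red eye pigment synthesis. Its counts were 12 and 4 in control larvae, 3 and 1 in mutant larvae and 6 and 10 in rescue larvae, and it overlaps GstO2, so its counts are uncertain. Such low counts give no comparison at this depth.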
